A study of Mus musculus with 14 samples.

Results

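The 6 genes studied here encode receptors that bind the Fc part of IgG, or the signalling chain of such receptors, and were followed in mouse bone marrow-derived macrophages: Fcgr1, Fcgr3, Fcgr4, Fcgr2b, Fcer1g and Fcgrt. They were chosen by name, and all 6 of the 25239 gene symbols in the deposited table were found and passed the filter on low counts. The 14 libraries form 4 groups: 3 libraries of Ezh2 knockout (KO) macrophages and 4 of wild type (WT) macrophages kept for 24 h in medium that Hepa1-6 cells, from a mouse liver tumour, had conditioned (CM), and 3 KO and 4 WT libraries kept for the same 24 h in complete DMEM (control medium). KO cells came from Ezh2fl/fl;LysM-Cre+/- mice, in which Cre made from the lysozyme M locus removes floxed Ezh2 in myeloid cells, and WT cells came from littermate controls, whose floxed and Cre alleles the labels do not give. All cells had first been grown from marrow in medium that held L929 cell conditioned medium and horse serum. Deletion by this Cre need not be complete, and medium conditioned by other cell types was not compared, so an effect of CM cannot be credited to tumour cells in particular. Whether each library of a group is a separate animal is not stated, so p-values measure the spread of these libraries only, which may be technical in origin.

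Macrophages take up and respond to antibody-coated particles through the Fcγ receptors. In mice, Fcgr1 (the high-affinity receptor FcγRI), Fcgr3 (FcγRIII) and Fcgr4 (FcγRIV) encode activating receptors, whose signal and surface display depend on the common γ chain encoded by Fcer1g, a small adaptor with an ITAM that recruits the kinase Syk. Fcgr2b encodes the inhibitory receptor FcγRIIB, whose own cytoplasmic ITIM recruits the phosphatase SHIP1 (Inpp5d), so that the balance of activating to inhibitory receptors sets the response to immune complexes. Fcgrt encodes the neonatal Fc receptor FcRn, which pairs with β2-microglobulin (B2m), binds IgG and albumin in endosomes and returns them to the surface.

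Library totals of summed exon counts ranged over 40.2 to 61.5 mega-counts for KO in CM, 41.3 to 85.8 for WT in CM, 41.8 to 54.4 for KO in control medium and 45.2 to 82.1 for WT in control medium. Ezh2 averaged 27.1 ± 2.2 CPM (counts per mega-count of the library) in KO CM libraries (SD, n = 3) and 35.7 ± 3.3 CPM in WT CM libraries (SD, n = 4), and 18.6 ± 0.3 CPM in KO control and 23.0 ± 2.9 CPM in WT control libraries. A pair of its exons near the 3′ end, singled out after their values were seen, had 7.2 to 19.3% of the count per base of the other Ezh2 exons in KO CM and 2.1 to 31.7% in KO control libraries, against 94.0 to 143% in WT CM and 103 to 169.5% in WT control libraries. Of the macrophage markers, Csf1r, Adgre1, Itgam, Cd68, Mertk, Cd14 and Lyz2 averaged 110.0 CPM or more in every group. With CM, Itgam rose by log2 1.44 in KO and 1.30 in WT macrophages, while Adgre1 fell by 0.96 in KO and 0.69 in WT and Csf1r by 0.57 in KO and 0.45 in WT macrophages. Lyz2, the gene that carries the Cre, averaged 9480 CPM in KO CM against 20500 CPM in WT CM libraries. WT libraries 3 and 4 of both media stood apart: the first exon of Fcgr1 had 6.8 to 7.4% of the count of its last exon in these 4 libraries, against 21.7 to 30.3% in the 6 KO libraries and 26.9 to 30.2% in WT libraries 1 and 2. The same ratio was lower in WT libraries 3 and 4 for Fcgr2b, Fcgr3, Fcgr4 and Fcer1g, but not for Fcgrt. The labels name no batch, so genes called between KO and WT are given below with WT libraries 1 and 2 alone as well.

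Compared per kilobase of exon, Fcer1g was the most abundant of the 6 genes and Fcgr3 came next in each of the 4 groups. In KO macrophages in CM the levels were 1379.6 ± 40.7 CPM per kilobase for Fcer1g, 617 ± 39.9 for Fcgr3, 245 ± 10.5 for Fcgr2b, 166 ± 7.0 for Fcgr1, 157 ± 9.8 for Fcgrt and 121 ± 6.3 for Fcgr4 (SD, n = 3). In WT macrophages in CM they were 1298 ± 105 for Fcer1g, 568.5 ± 33.6 for Fcgr3, 233 ± 11.0 for Fcgr2b, 169.8 ± 18.5 for Fcgrt, 158 ± 12.3 for Fcgr4 and 155 ± 7.2 for Fcgr1 (SD, n = 4). Fcgr2b was thus in the third place in CM. In control medium it stood last, at 51.0 ± 2.8 in KO and 61.1 ± 5.2 in WT macrophages, beside Fcgr4 at 55.0 ± 1.7 in KO and 65.5 ± 2.6 in WT macrophages. Fcgr1 and Fcgrt differed by less than their combined spread in KO CM and in WT control libraries, as did Fcgrt, Fcgr4 and Fcgr1 among each other in WT CM libraries and Fcgr2b and Fcgr4 in both control groups. A read that touches a short exon is counted there in full, so this scale overstates genes made of short exons, such as Fcer1g. Counting nested variants of an exon once, which concerns Fcgr3 and Fcgrt, gave means of 617 for Fcgr3 and 152 for Fcgrt in KO CM and 583 for Fcgr3 and 166 for Fcgrt in WT CM libraries.

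**Figure D1:**
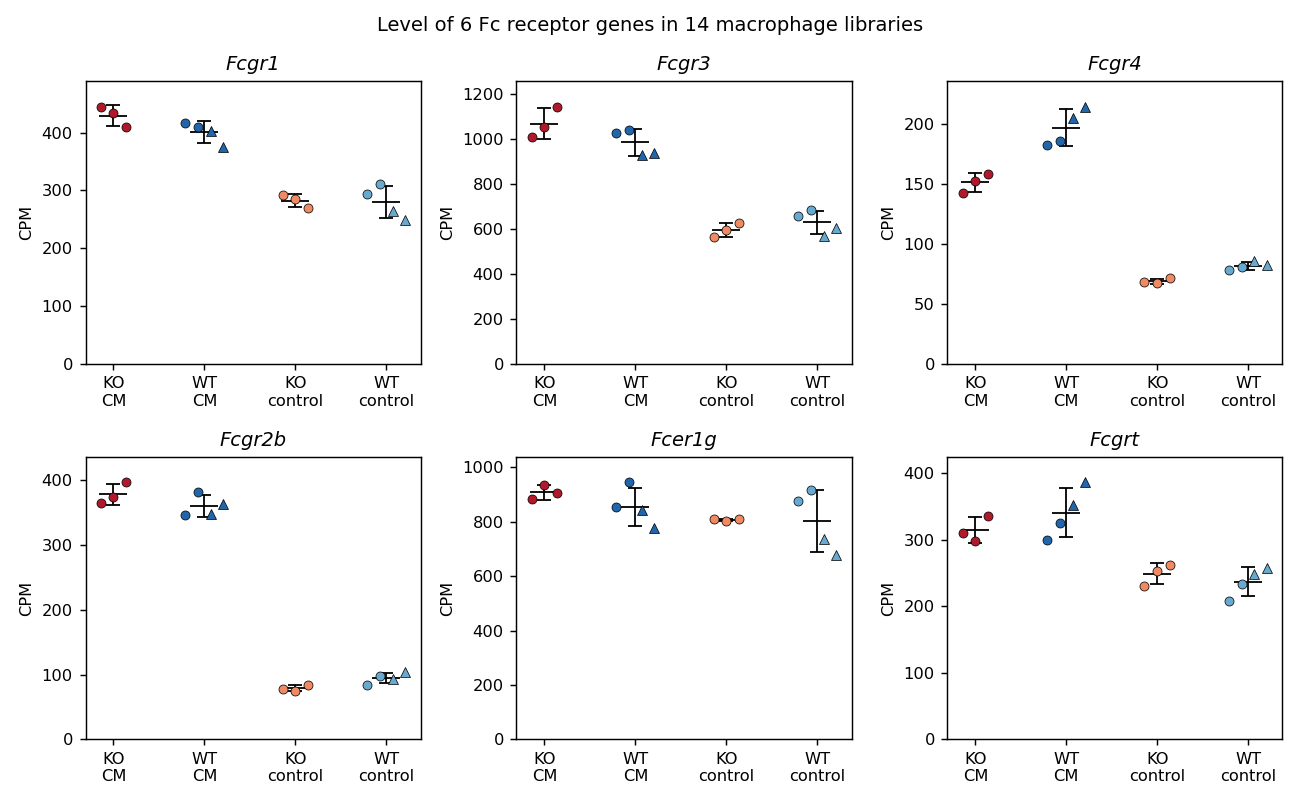
Level (CPM, linear axis from 0) of each Fc receptor gene in each library, by group; horizontal bars and whiskers are the mean and SD, and triangles mark WT libraries 3 and 4. For Fcgr2b the 7 CM libraries lie between 346 and 396 CPM and the 7 control libraries between 74.8 and 103.5 CPM, while the Fcer1g groups lie close together.

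CM raised 5 of the 6 genes in KO and 5 of 6 in WT macrophages, by edgeR's quasi-likelihood test with Benjamini-Hochberg adjustment over 13311 genes, called at an adjusted p below 0.05. All of these calls were increases. For comparison, 20% of all tested genes were called higher and 18.2% lower with CM in KO macrophages, and 19.3% were called higher and 18% lower in WT macrophages. The median log2 difference of the 6 genes was 0.72 in KO and 0.59 in WT macrophages, against -0.01 over all tested genes in each genotype. In bulk RNA, fewer or more cells of a type and less or more RNA per cell cannot be told apart.

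Among the activating receptors, Fcgr4 rose most. This receptor binds IgG2a and IgG2b complexes on myeloid cells. It had 143, 153 and 159 CPM in the KO CM libraries, against 67.9, 67.2 and 71.2 CPM in the KO control libraries. In WT macrophages it had 183, 186, 205 and 215 CPM in CM, against 78.1, 80.9, 86.0 and 82.6 CPM in control medium. Every CM library lay above every control library of its genotype. The log2 difference was 1.14 ± 0.07 (SE) in KO macrophages, a 2.20-fold increase (adjusted p = 3.44e-09), and 1.27 ± 0.06 in WT macrophages, a 2.41-fold increase (adjusted p = 1.77e-10).

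Fcgr3, which binds IgG1 complexes with low affinity, had 1009, 1056.5 and 1145 CPM in KO CM libraries, against 564.5, 598 and 628 CPM in KO control libraries. It had 1029, 1043, 932 and 939 CPM in WT CM libraries, against 658, 687, 568 and 605 CPM in WT control libraries. Again the media did not overlap in either genotype, although the rise was smaller than that of Fcgr4. The log2 difference was 0.84 ± 0.08 in KO (adjusted p = 4.52e-07) and 0.65 ± 0.07 in WT macrophages (adjusted p = 1.49e-06).

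Fcgr1, the receptor for monomeric IgG2a, showed the smallest of the 3 rises. It had 445, 434 and 409 CPM in KO CM libraries, against 292, 285.5 and 269.7 CPM in KO control libraries. In WT macrophages it had 417, 410.0, 403 and 374 CPM in CM, against 293, 311, 264 and 249 CPM in control medium. The lowest CM library was above the highest control library in each genotype, and the increase was 1.52-fold in KO (log2 0.60 ± 0.08, adjusted p = 1.32e-05) and 1.43-fold in WT macrophages (log2 0.52 ± 0.07, adjusted p = 1.28e-05).

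The inhibitory receptor gene Fcgr2b changed most of the 6. It had 365, 374 and 396 CPM in KO CM libraries, against 78.3, 74.8 and 83.6 CPM in KO control libraries. In WT libraries it had 346, 382, 348 and 364 CPM in CM, against 84.6, 97.2, 92.5 and 103.5 CPM in control medium. The gap between media was many times the spread within a group. The increase was 4.80-fold in KO (95% interval 4.29 to 5.36; log2 2.26 ± 0.08, adjusted p = 6.53e-12) and 3.81-fold in WT macrophages (95% interval 3.46 to 4.19; log2 1.93 ± 0.06, adjusted p = 5.37e-12). Within WT libraries 1 and 2 the log2 difference was 2.00, and within WT libraries 3 and 4 it was 1.86.

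**Figure D2:**
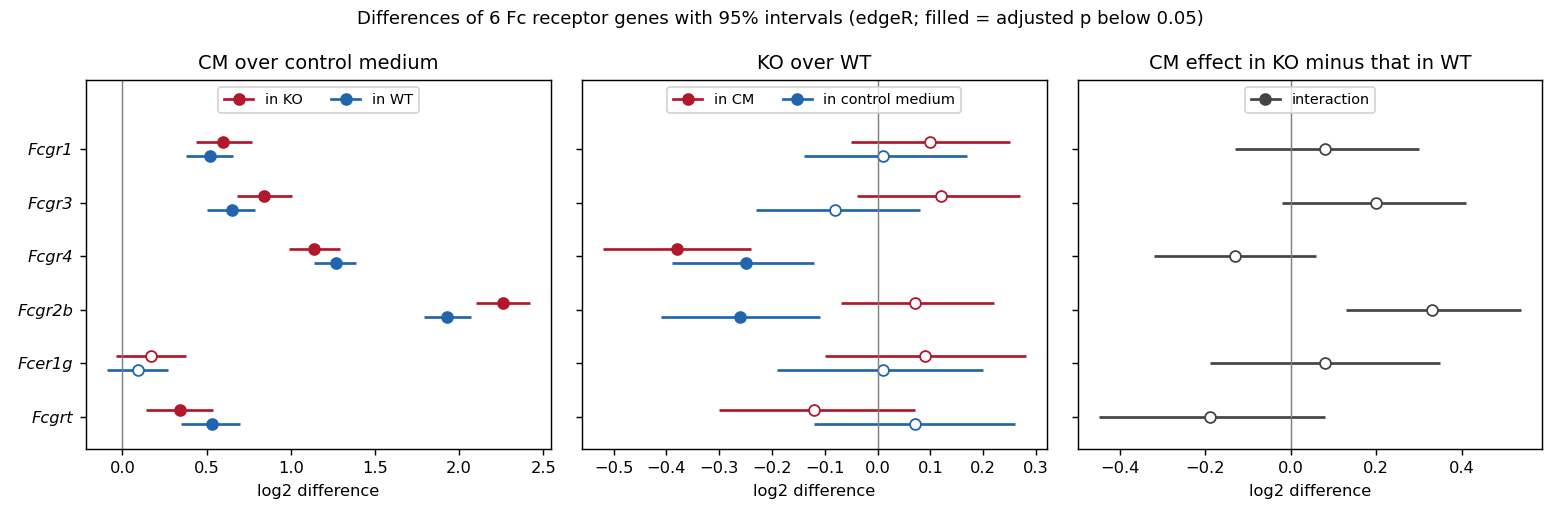
Log2 difference (points) and 95% interval (lines) of the 6 genes for CM over control medium, for KO over WT and for the CM effect in KO minus that in WT; filled points have an adjusted p below 0.05 in edgeR. In the first panel the Fcgr2b points lie at 2.26 in KO and 1.93 in WT and both Fcer1g intervals include 0; the axes of the 3 panels differ in range.

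Because Fcgr2b rose more than the activating genes, the make-up of the Fcγ receptor transcripts differed between the media. Summed per kilobase, Fcgr1, Fcgr3 and Fcgr4 had 3.68, 3.72 and 3.69 times the level of Fcgr2b in the KO CM libraries, against 9.72, 10.51 and 9.68 times in the KO control libraries. In WT macrophages the ratio was 4.03, 3.67, 3.81 and 3.65 in CM, against 10.15, 9.25, 8.34 and 7.63 in control medium. No CM library reached the ratio of any control library. Fcgr2b made up 21.3 ± 0.1% of the 4 Fcγ receptors in KO CM libraries (SD, n = 3) and 20.9 ± 0.73% in WT CM libraries (SD, n = 4), against 9.13 ± 0.38% in KO control and 10.28 ± 1.12% in WT control libraries. The share of Fcgr3 was 53.7 ± 1.18% in KO CM and 51.0 ± 1.65% in WT CM libraries, against 61.5 ± 1.44% in KO control and 60.7 ± 1.53% in WT control libraries. The lowest ratios in control medium, 8.34 and 7.63, were those of WT libraries 3 and 4, set apart above by their first-exon counts. All exons were used, including those in which Fcgr2b and Fcgr3 share sequence, described below. These ratios and shares describe the libraries and were not tested.

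The adaptor gene Fcer1g did not follow the receptors. It had 882, 936 and 905 CPM in KO CM libraries, against 809, 801 and 809.7 CPM in KO control libraries. In WT libraries it had 853.5, 944, 842 and 777 CPM in CM, against 877, 917, 737.5 and 678 CPM in control medium. The WT groups overlapped, while the KO groups did not. The log2 difference was 0.17 (95% interval -0.04 to 0.38, adjusted p = 0.186) in KO and 0.09 (95% interval -0.09 to 0.27, adjusted p = 0.44) in WT macrophages, so neither passed the threshold in the fit over all 4 groups. In KO macrophages the same difference of 0.17 did pass in 5 other settings: with the KO groups fitted alone (adjusted p = 0.00512), with a replicate block (0.0077), with a batch term (0.0127), and with WT libraries 1 and 2 (0.00604) or 3 and 4 (0.00477) as the only WT libraries in the fit. Within WT libraries 3 and 4 it was 0.20 (adjusted p = 0.00978), and within WT libraries 1 and 2 it was 0.00 (adjusted p = 0.993). The 4 Fcγ receptors together had 0.82, 0.80 and 0.87 times the level of Fcer1g per kilobase in KO CM libraries and 0.87, 0.81, 0.85 and 0.93 times in WT CM libraries. In control medium the ratio was 0.44, 0.46 and 0.47 in KO libraries and 0.46, 0.46, 0.50 and 0.56 in WT libraries.

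**Figure D3:**
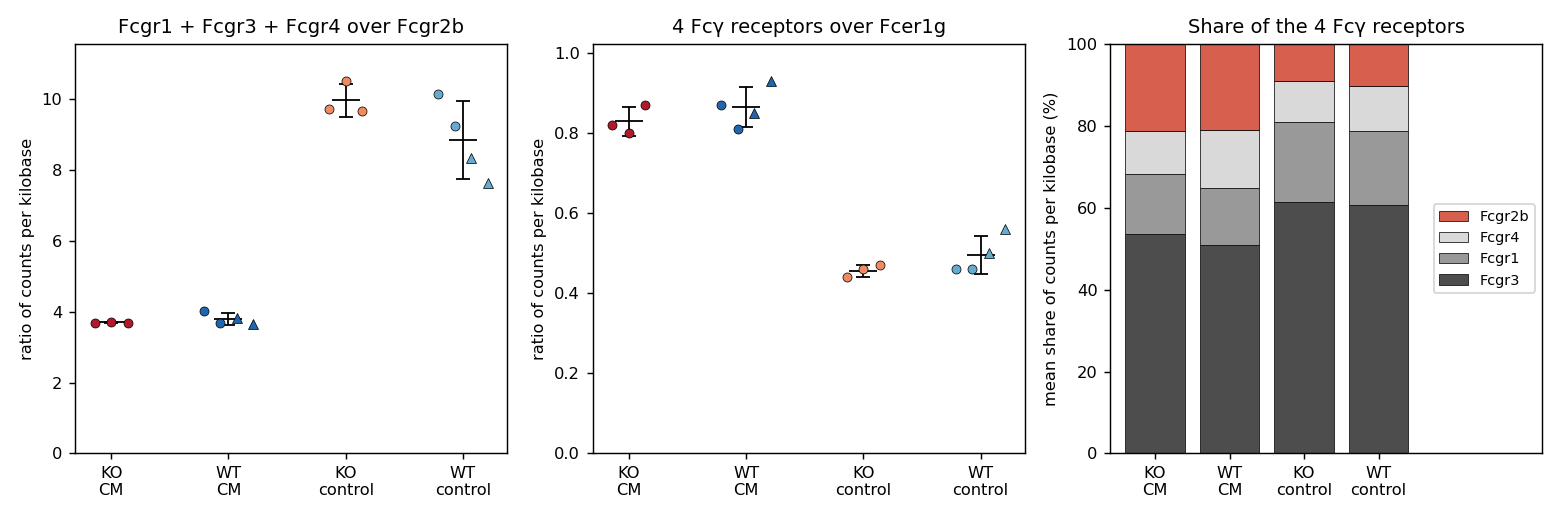
Left and middle, ratio of counts per kilobase per library (linear axes from 0) with mean and SD for the activating receptors over Fcgr2b and for all 4 Fcγ receptors over Fcer1g; triangles mark WT libraries 3 and 4. Right, mean share of each Fcγ receptor gene per group, where Fcgr2b (top segment) takes 21.3 and 20.9% in CM and 9.13 and 10.28% in control medium (KO and WT each time).

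Fcgrt, the FcRn heavy chain gene, had 309.8, 298 and 336 CPM in KO CM libraries, against 231, 253 and 262 CPM in KO control libraries. In WT libraries it had 300.0, 325, 353 and 386 CPM in CM, against 208, 233, 248 and 258 CPM in control medium. CM libraries lay above control libraries in each genotype. The increase was 1.27-fold in KO (log2 0.34 ± 0.09, adjusted p = 0.00996) and 1.44-fold in WT macrophages (log2 0.53 ± 0.08, adjusted p = 9.96e-05). In KO macrophages the call was lost without KO control library 1 (log2 0.29, adjusted p = 0.0527) and with libraries scaled by their totals alone (log2 0.23, adjusted p = 0.0553), a scaling that put the median of all genes at -0.12. Its partner B2m, at 3310 CPM in KO CM and 3260 CPM in WT CM libraries, was not called in KO (log2 0.17, adjusted p = 0.0959) or WT macrophages (log2 0.13, adjusted p = 0.126).

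Fcgr2b and Fcgr3 lie close together on chromosome 1, with Fcgr4 between them. The exons of their immunoglobulin-like domains are much alike, so that short reads from these exons can be hard to assign. The most alike pair, exon 4 of each gene, is 255 bases long, and 250 bases are identical (98.0%). Both are shown from GENCODE transcripts on GRCm38 (mm10), 5′ to 3′, with capitals at the 5 bases that differ.
Fcgr2b exon 4, chr1:170966446-170966700, minus strand: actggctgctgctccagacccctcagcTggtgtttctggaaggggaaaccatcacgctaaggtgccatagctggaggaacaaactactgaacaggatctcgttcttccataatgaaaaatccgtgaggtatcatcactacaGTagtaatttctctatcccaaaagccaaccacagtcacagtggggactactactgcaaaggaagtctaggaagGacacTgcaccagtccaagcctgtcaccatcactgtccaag
Fcgr3 exon 4, chr1:171053939-171054193, minus strand: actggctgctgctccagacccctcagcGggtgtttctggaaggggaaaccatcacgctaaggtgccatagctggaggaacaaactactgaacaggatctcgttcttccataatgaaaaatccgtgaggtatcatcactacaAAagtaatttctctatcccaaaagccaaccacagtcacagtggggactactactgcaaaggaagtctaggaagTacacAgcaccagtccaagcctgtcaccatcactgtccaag
The other exon pair differed at 14 of 255 bases (94.5% identical), and neither domain exon of Fcgr4 was more than 61.6% identical to one of Fcgr2b. Stretches of 50 bases that are the same in both genes covered 72.2% of exon 4 and 40.0% of exon 3.

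Exon by exon, Fcgr2b rose with CM throughout its length, by log2 2.03 to 2.38 in KO and 1.68 to 2.13 in WT macrophages. Exon 4, the most like Fcgr3, rose least in both genotypes, by 2.03 in KO and 1.68 in WT macrophages. The WT value rests in part on WT control library 4. Exon 4 had 2323 counts there and 1450 in WT control library 3, whereas exon 5 had 775 and 729. Exon 3 rose by 2.24 in KO and by 1.78 in WT macrophages, where it was next to lowest. Leaving out the exons found to hold such stretches, a setting chosen after the data were seen, the rise of Fcgr2b was log2 2.33 ± 0.08 in KO and 2.04 ± 0.06 in WT macrophages, and that of Fcgr3 was 0.80 ± 0.10 in KO and 0.63 ± 0.08 in WT macrophages. All 4 kept an adjusted p below 0.05. The first exon (171 bases) and last exon (542 bases) of Fcgr2b and the last of Fcgr3 (684 bases) matched no annotated exon by length, so they were kept without a check for shared stretches, as were the exons of 21 and 38 bases, which were too short for one. Among exons that were checked and held none, exon 5 of Fcgr2b rose by 2.38 in KO and 2.06 in WT, and exon 1 of Fcgr3 by 0.77 in KO and 0.52 in WT macrophages. Fcgr4 exons rose by 0.98 to 1.23 in KO and 1.24 to 1.28 in WT, and Fcgr1 exons by 0.55 to 0.67 in KO and 0.46 to 0.55 in WT macrophages.

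**Figure D4:**
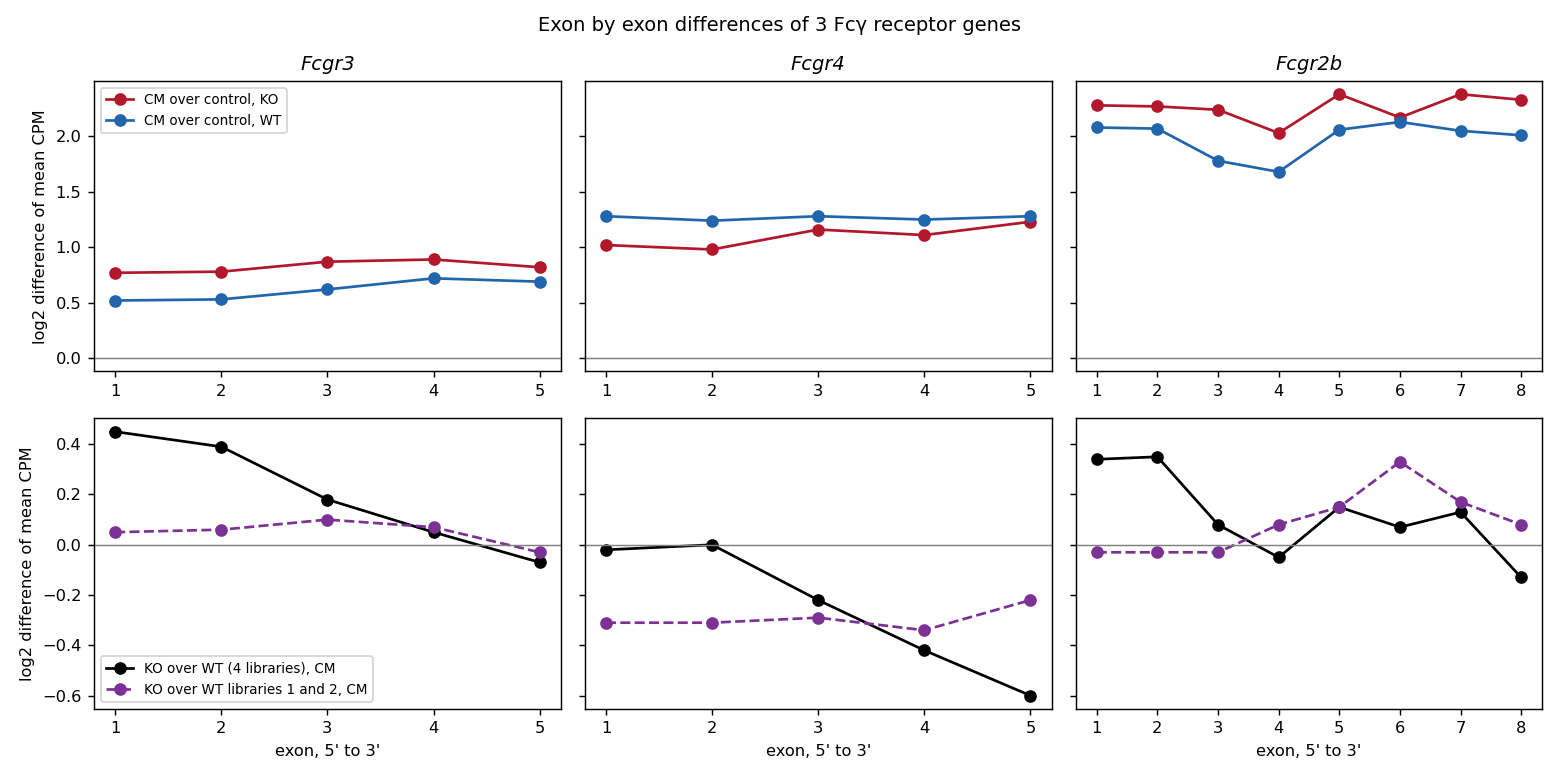
Log2 difference of mean CPM for each exon, in order along the transcript, of Fcgr3, Fcgr4 and Fcgr2b. Top, CM over control medium in KO and WT macrophages, where every exon lies above 0 and exons 3 and 4 of Fcgr2b are lowest in WT. Bottom, KO over WT in CM with all 4 WT libraries or with WT libraries 1 and 2; the Fcgr4 line slopes from -0.02 to -0.60 with all 4 and lies between -0.34 and -0.22 with WT libraries 1 and 2.

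Mouse Fcgr2b is spliced into a b1 form, typical of B cells, which holds an extra cytoplasmic exon, and a b2 form without it, typical of macrophages. The extra exon is shown because its counts separate these forms.
Fcgr2b exon 6, chr1:170963325-170963465, minus strand: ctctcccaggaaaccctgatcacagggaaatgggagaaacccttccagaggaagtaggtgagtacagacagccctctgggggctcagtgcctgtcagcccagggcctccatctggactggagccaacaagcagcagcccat
This exon, picked out after its values were seen, had 17.1, 16.9 and 16.2% of the count of the 123-base exon before it in KO CM libraries, against 20.2, 19.5 and 18.5% in KO control libraries. In WT libraries it had 13.8, 15.3, 20.5 and 21.1% in CM, against 11.9, 18.9, 24.0 and 12.9% in control medium. Its count was 72 to 86 in the KO control libraries, and the WT groups overlapped. Its log2 rise with CM, 2.17 in KO and 2.13 in WT macrophages, was close to that of the other exons. No test was made. Of the B cell markers, Pax5 had no count in any library and Ms4a1 averaged 0.0182 CPM or less in every group, while Cd79b averaged 1.89 CPM in KO CM and 1.41 CPM in WT CM libraries, against 1.48 CPM in KO control and 1.39 CPM in WT control libraries.

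In the fit over all 4 groups, fewer of these genes were called between KO and WT than between media. In CM, 1 of the 6 was called, lower in KO, where 1.49% of all tested genes were called lower and 3.1% higher. In control medium 2 of the 6 were called, both lower in KO, where 2.5% of all tested genes were called lower and 2.82% higher. The comparisons of KO with WT use the same libraries as the comparisons of media.

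Fcgr4 was the gene called in CM. As given above, it had 143 to 159 CPM in KO CM libraries, against 183 to 215 CPM in WT CM libraries, with no overlap (log2 -0.38 ± 0.06, 95% interval -0.52 to -0.24, adjusted p = 0.00392). With WT libraries 1 and 2 alone the difference was -0.27 (adjusted p = 0.0119), and with WT libraries 3 and 4 alone it was -0.47 (adjusted p = 1.5e-05). The call was kept whichever single library was left out (log2 -0.42 to -0.34). It was lost when each gene was counted over its most-counted exon alone (log2 -0.51, adjusted p = 0.0646) or its 3′-most exon alone (log2 -0.49, adjusted p = 0.0561). Along the transcript, the KO over WT difference ran from -0.02 in exon 1 to -0.60 in exon 5 with all 4 WT libraries, and lay between -0.34 and -0.22 with WT libraries 1 and 2.

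In control medium Fcgr4 had 67.2 to 71.2 CPM in KO libraries, against 78.1 to 86.0 CPM in WT libraries (log2 -0.25 ± 0.06, adjusted p = 0.0347). Fcgr2b had 74.8 to 83.6 CPM in KO libraries, against 84.6 to 103.5 CPM in WT libraries (log2 -0.26 ± 0.07, adjusted p = 0.0416). Neither gene's groups overlapped, but neither call held with WT libraries 1 and 2 alone (Fcgr4 log2 -0.21, adjusted p = 0.0549; Fcgr2b log2 -0.20, adjusted p = 0.135). Leaving out WT control library 3 or 4, or any KO control library, ended both calls, with adjusted p-values of 0.0667 to 0.184 for Fcgr2b and 0.0746 to 0.144 for Fcgr4. The Fcgr2b call was also lost without WT CM library 4 or KO CM library 1 or 2 (adjusted p = 0.0507 to 0.0592), and without the exons found to share sequence with Fcgr3 (log2 -0.18, adjusted p = 0.12). Exons differed in direction with all 4 WT libraries. The log2 difference was 0.24 in exon 1 and -0.56 in exon 5 of Fcgr4, and 0.13 in exon 1 and -0.45 in exon 8 of Fcgr2b. With WT libraries 1 and 2, Fcgr4 exons lay between -0.26 and -0.13 and Fcgr2b exons between -0.33 and 0.14.

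The other genes did not pass the threshold between genotypes. In CM, the log2 difference of KO from WT was 0.10 for Fcgr1 (95% interval -0.05 to 0.25), 0.12 for Fcgr3 (-0.04 to 0.27), 0.07 for Fcgr2b (-0.07 to 0.22), 0.09 for Fcer1g (-0.10 to 0.28) and -0.12 for Fcgrt (-0.30 to 0.07). In control medium it was 0.01 for Fcgr1 (-0.14 to 0.17), -0.08 for Fcgr3 (-0.23 to 0.08), 0.01 for Fcer1g (-0.19 to 0.20) and 0.07 for Fcgrt (-0.12 to 0.26). These values followed the set of WT libraries: Fcer1g in control medium was at -0.15 (adjusted p = 0.124) against WT libraries 1 and 2 and at 0.19 (adjusted p = 0.00719) against WT libraries 3 and 4. In CM, Fcgr3 was at 0.05, Fcer1g at 0.02 and Fcgrt at 0.02 against WT libraries 1 and 2, and all were called against WT libraries 3 and 4, Fcgr3 at 0.19 (adjusted p = 0.0187), Fcer1g at 0.16 (adjusted p = 0.0183) and Fcgrt at -0.23 (adjusted p = 0.0103). Fcgr1 and Fcgr2b in CM were each at 0.06 against WT libraries 1 and 2 and were called against neither pair.

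Whether CM acted differently in KO and WT macrophages was tested as an interaction. None of the 6 genes was called, and 0% of all tested genes were. By edgeR 1050 of the 13311 genes, including 1 of the 6, had an unadjusted p below 0.05, while DESeq2 called 84 genes and limma-voom 27, none of them among the 6. This was Fcgr2b, whose log2 rise was larger in KO by 0.33 (95% interval 0.13 to 0.54), with an edgeR adjusted p = 0.372. A replicate block, which treats same-numbered control and CM libraries of a genotype as pairs, again gave 0.33 and a call (adjusted p = 0.0152). With WT libraries 3 and 4 as a batch term the adjusted p of Fcgr2b was 0.058. Same-numbered libraries deviated together in WT but not in KO macrophages. In WT, libraries 3 and 4 of both media also differed from the others in first-exon counts, and the part of this split was not tested. Whether same-numbered libraries are pairs was not tested. Without the exons found to be shared with Fcgr3 the difference was 0.28 (adjusted p = 0.449). For the remaining genes the log2 difference was 0.08 for Fcgr1, 0.20 for Fcgr3, -0.13 for Fcgr4, 0.08 for Fcer1g and -0.19 for Fcgrt, and all 5 intervals included 0.

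Downstream of the activating receptors, 29 genes of ITAM signalling were tested. With CM, 6 rose and 7 fell in KO macrophages (median log2 0.00), and 6 rose and 10 fell in WT macrophages (median log2 -0.07). For this list and those below, the measure is the share of all tested genes called with CM. It was 20% higher and 18.2% lower in KO, and 19.3% higher and 18% lower in WT macrophages. The Src family kinase gene Fgr rose by log2 1.15 ± 0.10 in KO (adjusted p = 3.34e-07) and 1.17 in WT macrophages (adjusted p = 3.92e-08), to 25.3 CPM in KO CM against 11.4 CPM in KO control libraries. Src rose by 1.30 in KO and 1.09 in WT macrophages, and Card9, an adaptor of the NF-κB branch, by 0.52 in KO and 0.61 in WT macrophages. Ptk2b, the kinase PYK2, fell by 0.99 in both, and Ptprc, the phosphatase CD45, differed by -0.43 in KO and -0.46 in WT macrophages. Between genotypes Syk, the kinase that binds the phosphorylated ITAM, was lower in KO, at 443 against 519 CPM in CM (log2 -0.23, adjusted p = 0.0137) and at 415 against 486 CPM in control medium (log2 -0.23, adjusted p = 0.0142). Fyn, another Src family kinase, was higher in KO, by 0.25 in CM (adjusted p = 0.0123) and 0.24 in control medium (adjusted p = 0.0142), and Fgr was lower in KO in CM (log2 -0.36, adjusted p = 0.041). Against WT libraries 1 and 2 alone, Syk was at -0.17 in CM, where the call was lost (adjusted p = 0.0508), and at -0.20 in control medium (adjusted p = 0.021). Fyn was then at 0.26 in CM (adjusted p = 0.0264) and 0.28 in control medium (adjusted p = 0.0146), and Fgr at -0.41 in CM (adjusted p = 0.0316).

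Of 12 tested genes of inhibitory signalling, 2 rose and 3 fell with CM in each genotype (median log2 -0.06 in KO and -0.08 in WT macrophages). Inpp5d, the phosphatase SHIP1 that FcγRIIB recruits, fell by 0.49 on the log2 scale in KO (adjusted p = 8.52e-07) and fell by 0.53 in WT macrophages (adjusted p = 7.2e-08), to 340 CPM in KO CM against 479 CPM in KO control libraries. Pag1, a membrane adaptor that binds the kinase Csk, rose by 1.01 in KO and 0.86 in WT macrophages. Of the Dok adaptors, Dok2 rose by 0.58 in KO and 0.50 in WT, whereas Dok3 fell by 0.38 in KO and 0.36 in WT macrophages. Between genotypes, the ubiquitin ligase genes Cblb (log2 -0.61, adjusted p = 0.0205) and Cbl (log2 -0.27, adjusted p = 0.0418) were lower in KO in control medium. Against WT libraries 1 and 2 alone, Cblb was at -0.34 (adjusted p = 0.0126) and Cbl was at -0.27 and no longer called (adjusted p = 0.0551).

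The other ITAM adaptors and the receptors listed with them, not all of which pair with an adaptor, also moved both ways. Of 13 tested, 4 rose and 5 fell in KO (median log2 -0.19), and 5 rose and 5 fell in WT macrophages (median log2 -0.17). Clec7a, the β-glucan receptor Dectin-1, rose by log2 0.57 in KO and 0.43 in WT macrophages and was also higher in KO than in WT, by 0.49 in CM (adjusted p = 0.000376) and 0.35 in control medium (adjusted p = 0.00436). Against WT libraries 1 and 2 alone it was higher by 0.49 in CM (adjusted p = 0.00035) and 0.36 in control medium (adjusted p = 0.00275). Lower in KO were Clec4d (log2 -0.53, adjusted p = 0.0417) and Clec4e (log2 -0.38, adjusted p = 0.0469) in CM, and Pira2 (log2 -0.25, adjusted p = 0.0355) in control medium. Against WT libraries 1 and 2 alone these were at -0.26 for Clec4d (adjusted p = 0.0203), -0.26 for Clec4e, where the call was lost (adjusted p = 0.172), and -0.32 for Pira2 (adjusted p = 0.00242). Clec4n, the gene of Dectin-2, which pairs with the γ chain, rose by 0.70 in KO and 0.64 in WT macrophages. Clec4e, the gene of Mincle, rose by 0.63 in KO and 0.76 in WT macrophages, and Cd300lb fell by 0.53 in KO and 0.52 in WT macrophages. Of 32 genes of the phagocytic machinery, 6 rose and 10 fell in KO (median log2 -0.09), and 7 rose and 12 fell in WT macrophages (median log2 -0.10). The GTPase gene Dnm2 rose by 0.50 in KO and 0.45 in WT, while the kinase gene Pak1 fell by 0.79 in each, the actin-binding Coro1a by 0.99 in KO and 0.76 in WT, and Elmo1 by 0.52 in KO and 0.65 in WT macrophages.

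**Figure D5:**
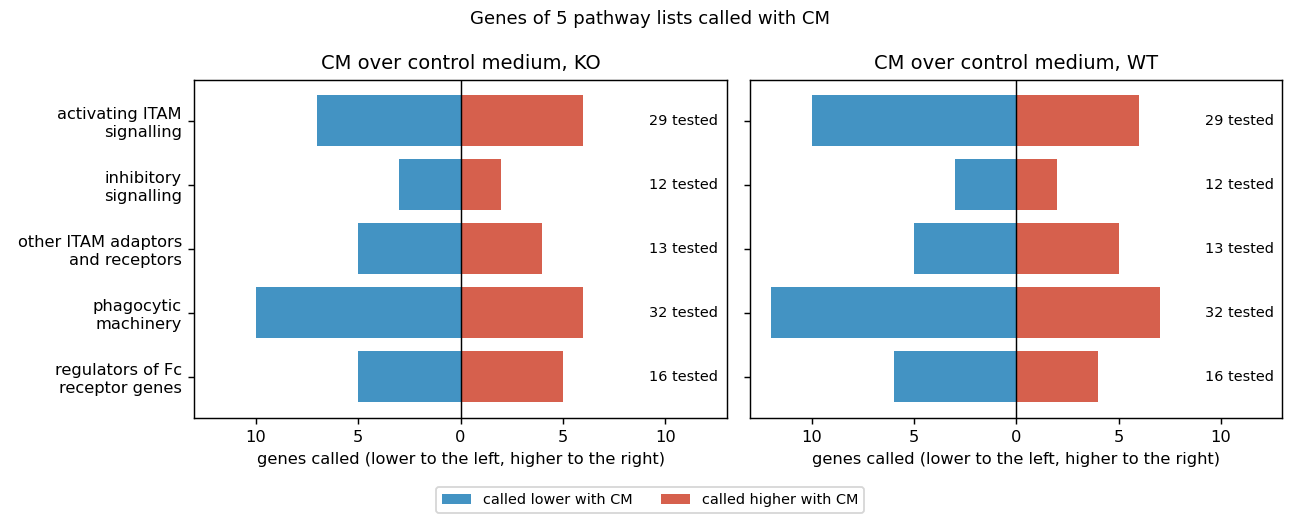
Number of genes of 5 lists called higher (right of 0) or lower (left of 0) with CM over control medium in KO and WT macrophages, with the number tested. In each list genes were called both ways, for example 6 higher and 10 lower of 32 for the phagocytic machinery in KO. Of all tested genes, 20% were called higher and 18.2% lower in KO, and 19.3% higher and 18% lower in WT macrophages.

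Of 14 further Fc-binding and Fc receptor-like genes, 4 passed the filter, and 3 of these fell with CM in each genotype. Fcrls, an Fc receptor-like scavenger receptor, fell by 1.55 on the log2 scale in KO (adjusted p = 1.1e-10) and fell by 1.66 in WT macrophages (adjusted p = 9.71e-12), to 25.6 CPM in KO CM against 74.9 CPM in KO control libraries. Fcrl1 fell by 0.71 in KO and 0.48 in WT macrophages and was higher in KO than in WT, by 0.37 in CM (adjusted p = 0.034) and 0.60 in control medium (adjusted p = 0.00175). Against WT libraries 1 and 2 alone these were 0.46 in CM (adjusted p = 0.0219) and 0.57 in control medium (adjusted p = 0.00329). Fcrls was higher in KO in CM, by 0.31 (adjusted p = 0.0124), and by 0.28 against WT libraries 1 and 2 alone (adjusted p = 0.0303). Trim21, a cytosolic Fc receptor, fell by 0.44 in KO and 0.27 in WT macrophages. The IgE receptor chains Fcer1a and Ms4a2 had no count in any library.

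Of 16 genes that regulate Fc receptor genes, 5 rose and 5 fell with CM in KO (median log2 -0.05), and 4 rose and 6 fell in WT macrophages (median log2 -0.07). Il4ra, the IL-4 receptor chain, rose by log2 1.95 in KO (adjusted p = 2.06e-12) and 1.89 in WT macrophages (adjusted p = 4.03e-13), to 554 CPM in KO CM against 144 CPM in KO control libraries. Of the TGF-β receptor genes, Tgfbr2 rose by 0.78 in KO and 0.66 in WT, and Tgfbr1 fell by 1.48 in KO and 1.28 in WT macrophages. Il10ra fell by 0.82 in KO and 0.69 in WT macrophages.

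Upstream windows were searched for motifs on both strands, in the 250 bases before the RefSeq start of each gene (GRCm38.p6). The motifs were TTCNNNGAA (the interferon γ activated site), GAGGAA (the core of PU.1 sites) and GAAANNGAA (the core of the interferon-stimulated response element). Of 32851 such windows, 7.0% held the first, 23.3% the second and 7.1% the third. Fcgr1 held the first at -109 and the second at -55, on the minus strand. Fcgr4 held the third at -73 and the second at -22, on the minus strand. The windows of these 2 genes are shown 5′ to 3′ as they are the only ones with an interferon-related motif, which is in capitals together with the PU.1 core; no matches overlap.
Fcgr1 upstream window, chr3:96293970-96294219, minus strand: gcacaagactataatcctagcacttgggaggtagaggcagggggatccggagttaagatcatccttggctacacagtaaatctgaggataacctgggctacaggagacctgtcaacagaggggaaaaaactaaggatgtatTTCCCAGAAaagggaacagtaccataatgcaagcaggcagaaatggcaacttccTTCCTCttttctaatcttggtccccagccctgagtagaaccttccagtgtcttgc
Fcgr4 upstream window, chr1:171018676-171018925, plus strand: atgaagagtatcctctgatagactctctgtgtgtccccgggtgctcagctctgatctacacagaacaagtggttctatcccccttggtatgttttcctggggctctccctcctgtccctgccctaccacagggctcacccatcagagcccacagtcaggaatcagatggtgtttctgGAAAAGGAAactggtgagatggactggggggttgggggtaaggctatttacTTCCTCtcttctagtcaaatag
Fcgr3 held the PU.1 core alone, at -6 and -15 from its 2 annotated starts, and Fcgr2b, Fcer1g and Fcgrt held none of the motifs. These are matches of letters in short windows and say nothing of binding. Spi1, which encodes PU.1 and is named here for its motif, was not called with CM in KO (log2 0.02) or WT (log2 -0.04).

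Fcgr2b, Fcgr4, Fcgr3 and Fcer1g lie within chr1:170960558-171234349 on GRCm38.p6. The tested genes next to and among them included Dusp12, Fcrla, Cfap126, Sdhc, Pcp4l1, Nr1i3, Tomm40l, Apoa2 and B4galt3. None of these was called in any comparison, with log2 differences for CM of -0.20 to 0.61 in KO and -0.17 to 0.22 in WT macrophages. Fcgr1 lies on chromosome 3 and Fcgrt on chromosome 7.

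The genes whose log2 CPM over the 14 libraries was most like that of each Fc receptor gene were sought among 9590 genes averaging at least 4 CPM. All 14 points share the CM contrast and the split of the WT libraries by first-exon counts, so the correlations are descriptions. For Fcgr2b they were Nxpe5 (r = 0.998) and Litaf (r = 0.997), for Fcgr4 Fcna, the ficolin A gene (r = 0.995), and Arrdc4 (r = 0.991), and for Fcgr3 Tmem268 (r = 0.993) and Cd200r1, an inhibitory receptor gene (r = 0.990). For Fcgr1 they were Mvd, an enzyme gene of sterol synthesis (r = 0.989), and Gas7 (r = 0.988). Fcgrt was nearest to Slc16a1 (r = 0.962) and Ndufc1 (r = 0.960), and Fcer1g to Hspe1 and Srprb (r = 0.916 each). Among the 6 genes, Fcgr2b and Fcgr3 were most alike (r = 0.97) and Fcer1g and Fcgrt least (r = 0.17).

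Marker genes of other blood cells were checked because B cells, neutrophils, NK cells and mast cells also carry Fc receptors. The summed neutrophil markers, 8 genes, had 86.7 to 94.0 CPM in KO CM and 45.1 to 49.6 CPM in WT CM libraries, against 23.1 to 24.7 CPM in KO control and 13.3 to 17.1 CPM in WT control libraries. Nearly all of this was Mmp8, at 89.2 CPM in KO CM libraries, while Ly6g averaged 0.0243 CPM or less and Mpo 0.00539 CPM or less in every group. B cell markers, 5 genes, summed to 1.40 to 2.40 CPM in KO CM, 1.23 to 1.92 CPM in WT CM, 1.53 to 1.72 CPM in KO control and 0.741 to 2.43 CPM in WT control libraries. Mast cell and basophil markers, 6 genes, summed to 1.06 to 3.83 CPM over all libraries, with Mcpt8, Ms4a2 and Fcer1a at 0. Most was Kit, at 2.75 CPM in KO CM, 2.81 in WT CM, 1.02 in KO control and 2.71 in WT control libraries. With CM, Kit was called higher in KO (log2 1.42, edgeR adjusted p = 0.00124) but not in WT (0.04). Cpa3 was called higher in WT (1.13, adjusted p = 0.0237) but not in KO (0.11). In control medium Kit was lower in KO (-1.42, adjusted p = 0.0101; -1.19 against WT libraries 1 and 2, adjusted p = 0.0475). T and NK cell markers summed to 0.326 CPM or less in every library, with Cd3d, Cd3g and Ncr1 at 0. Dendritic cell markers stayed at 0.789 CPM or less and fibroblast markers at 1.02 CPM or less. Hepatocyte and hepatoma markers summed to 1.61 to 3.03 CPM, with Alb at 0 in every library. Afp made up nearly all of this sum. Its mean was 2.53 CPM (KO) and 1.68 CPM (WT) in control medium, and 2.15 CPM (KO) and 2.17 CPM (WT) in CM. CM gave no Afp call in either genotype (log2 -0.23 in KO, 0.37 in WT). Without CM, Afp was called higher in KO (log2 0.58, adjusted p = 0.0445 by edgeR). Dropping WT libraries 3 and 4 ended that call (log2 0.65, adjusted p = 0.109). The part of other cells in the results above was not tested.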

How the data were processed

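RNA was measured by sequencing in 14 libraries of bone marrow-derived macrophages. Per the labels, they were made with a stranded mRNA kit and read as 150-base pairs. The submitters' processing notes name HISAT2 and the build mm10; the counting tool, its strand setting and the annotation are not given in the sources used here. The deposited values are raw counts for each exon entry of a gene symbol, and the deposited lengths are in bases. An exon shared by transcript models is listed repeatedly, so the 427386 entries were reduced to 230445 distinct ones, which removed 48.6% of the counts, and summed over 25239 symbols. Entries of 1 exon that differ in length stay separate, so part of Fcgr3 and Fcgrt is counted more than once; counting it once was an alternative added after the data were seen. A fragment can count in several exons, so totals of 40.2 to 85.8 mega-counts per library are not fragments, and the error rests on the spread between libraries.

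Genes were filtered with edgeR's filterByExpr (minimum count 10, minimum total 15), scaled by TMM and fitted over all 4 groups with edgeR 4.0.16's quasi-likelihood test (R 4.3.3), with Benjamini-Hochberg adjustment over 13311 genes and a threshold of 0.05. The script was tested on simulated data. CPM are on TMM-scaled libraries, and 95% intervals come from the fit. DESeq2 1.42.0, limma 3.58.1 (voom), other scalings, filters and exon choices, single libraries left out, subsets of WT libraries and a replicate block were alternatives. Leaving out exons found to share sequence between Fcgr2b and Fcgr3 was also added after the data were seen. Same-numbered WT libraries deviated together (correlations of 0.33, 0.35, 0.47 and 0.46 between media). The WT libraries were also split by first-exon counts in both media, and the part of this split in the correlations was not tested. Only same-numbered libraries were compared, so whether they are pairs was not tested. The replicate number enters only the replicate block, an alternative. For CM and the interaction, this block treats same-numbered control and CM libraries of a genotype as pairs. For KO against WT it is the number itself, shared by both genotypes. The values given are from the fit without the block, which ignores any pairing. Same-numbered KO libraries did not deviate together (0, -0.04 and 0.05), nor did KO with WT libraries (-0.10 to 0.12).

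The genes and lists were chosen with earlier results of these data known. Named list genes are up to 4 with the smallest p in a comparison; likeness is Pearson's r of log2 CPM with a prior count of 2. Upstream sequences are from RefSeq (GRCm38.p6). Protein sequences were not used here. Some genes of the lists are not reported here.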

Additional observations from a re-analysis of the deposited data

How the results depend on the processing

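Over all alternatives, 857 values of single Fc receptor genes kept their direction and their side of the threshold, 30 fell short of it, 11 newly passed it and 26 changed sign. No call changed sign: the reversed values had sizes up to 0.16 and adjusted p-values of 0.124 or more. The causes were not tested. For CM, 4 to 5 of the 6 genes were called in KO and 5 in WT macrophages whichever library was left out, as were 4297 to 5218 of all genes in KO and 4498 to 4949 in WT (5077 in KO and 4960 in WT with every library). Precision rests on 3 or 4 libraries a group. Counting nested exon variants once changed no call of the 6 genes, and Fcgr2b then made up 21.3% of the Fcγ receptors in KO CM and 20.6% in WT CM, against 9.12% in KO control and 10.1% in WT control libraries.

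For KO against WT in control medium, 2 of the 6 genes were called. None (0) was called with library totals alone, the compared groups only, an adjusted p below 0.01, the most-counted exon, the 3′-most exon or WT libraries 1 and 2, 1 was called without the exons found to share sequence, 3 with WT libraries 3 and 4, and 0 to 2 with a library left out. Of all genes 708 were called, against 1501 by DESeq2, 4757 by limma-voom, 283 with the compared groups only, 174 below 0.01, 384 with the most-counted exon, 427 with the 3′-most exon, 5246 with WT libraries 3 and 4, and 224 to 1769 with a library left out. For KO against WT in CM, 1 of the 6 was called, 0 with the most-counted or the 3′-most exon and 4 with WT libraries 3 and 4. Of all genes 611 were called, against 1219 by DESeq2, 1794 by limma-voom, 173 below 0.01, 923 with a batch term, 4791 with WT libraries 3 and 4, and 217 to 721 with a library left out.

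In the interaction, the replicate block called 205 genes, 1 of them among the 6 (Fcgr2b), where the fit without it called 0. The counts were 84 by DESeq2, 27 by limma-voom, 3 with the 3′-most exon, 164 with a batch term, 11 with WT libraries 1 and 2, 54 with WT libraries 3 and 4, and 0 to 2 with a library left out. Fcer1g was called with CM in KO (log2 0.17) under the replicate block (adjusted p = 0.0077) with the compared groups only (0.00512), with a batch term (0.0127), and with WT libraries 1 and 2 (0.00604) or 3 and 4 (0.00477), and the block changed no call for CM in WT macrophages.

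The values that changed sign were these. In control medium Fcgr1 (0.01) came to -0.02 with the block, -0.06 with a batch term, -0.10 with the most-counted exon, the 3′-most exon or WT libraries 1 and 2, and -0.04 to 0.07 with a library left out. Fcer1g (0.01) came to -0.04 with the block, -0.11 with a batch term, -0.15 with the most-counted exon or WT libraries 1 and 2, -0.16 with the 3′-most exon, and -0.06 to 0.08 with a library left out. With WT libraries 3 and 4, Fcgr3 came to 0.03 and Fcgrt to -0.02. In CM, the most-counted and 3′-most exons gave -0.05 and -0.03 for Fcgr1, -0.04 and -0.02 for Fcgr2b, and -0.14 and -0.12 for Fcer1g, which a batch term put at -0.03. Fcgrt in CM was at 0.02 with WT libraries 1 and 2, and the interaction of Fcer1g was at -0.03 with WT libraries 3 and 4.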
